A study of Gallus gallus with 3 samples.

Results

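The Z chromosome genes of hen granulosa cells are described here across 3 stages of follicle growth. They are the genes that the deposited tables place on chromosome Z, 915 of the 19309 genes listed, beside 16400 genes on numbered chromosomes (autosomes) and 19 on W. Granulosa cells are the somatic cells around the oocyte of an ovarian follicle. Their RNA was sequenced from chicken (Gallus gallus) follicles in 1 library per stage. The 6 mm library came from follicles of 6 mm in diameter, not yet selected into the preovulatory hierarchy, of hens whose age the labels give as 10 to 15 months. The F5 library came from early preovulatory follicles in fast growth (10 to 16 months), and the F1 library from the follicles next to ovulate (10 to 17 months). The upper age moves by 1 month from label to label, so these ages may not be exact. All 3 were labelled as natural granulosa cells of the ovary, with no treatment. Strain and the number of hens or follicles pooled are not given in the sources used here.

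In birds the female is the sex with unlike sex chromosomes, ZW, and the male is ZZ. A hen's cell therefore carries a single Z, and the W keeps working copies of only a small set of the genes the pair once shared. Birds are known for incomplete, gene by gene dosage compensation, in place of a silencing of a whole Z. The Z also carries DMRT1, a transcription factor whose dosage directs testis formation in the chicken embryo. Only hens were sampled, so levels on a single Z are set here against autosomes of the same library and not against a male.

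Values are FPKM, read counts divided by gene length and library size. The 6 mm library held 14923359 reads, F5 14137511 and F1 14086626, as recovered from the values. As each stage had a single library, no difference below was tested or has a replicate check. Every interval in brackets is an exact 95% interval that covers counting error only, and not the choice of scaling. Ratios, 2-fold calls and orders of single genes use FPKM as deposited. Median-ratio scaling, an alternative used below, multiplies FPKM by 0.817 in 6 mm, 0.890 in F5 and 1.37 in F1. It raises F1 against 6 mm and F5, and single-gene ratios are not given on that scale. The granulosa markers, 8 of 8 found, summed to 1539, 6633 and 8045 FPKM in 6 mm, F5 and F1, and FOXL2, a forkhead factor that maintains them, was at 675, 967 and 1646. Not all of these markers followed that order: AMH was at 384, 18.2 and 0.779, and the follicle-stimulating hormone receptor FSHR at 31.5, 42.4 and 16.1, so that 7 of 8 reached an FPKM of 1 in F1. The zona pellucida gene ZP3, outside this list, was at 5011, 13094 and 97522. Its part in the F1 values of other genes was not tested. Theca and smooth muscle markers (10 of 13 found) summed to 643, 21.5 and 17.4, with LUM and PDGFRA at 0 in F5 and F1, and DCN at 0 in F5. Surface epithelium markers (4 of 5 found) summed to 153, 22.7 and 2.80, with KRT18 at 0 in F5 and F1. Oocyte and germ cell markers (6 of 6) summed to 225, 43.8 and 0.900. Not all of them were high in 6 mm: DDX4, the germ cell helicase on Z, was at 0.122, 0.032 and 0.032, and a GDF-9 entry was at 0 in each library. Endothelial markers (6 of 7) summed to 68.8, 13.1 and 2.68, with TEK, which lies on Z, and VWF at 0 in F1. Leukocyte markers (6 of 6) summed to 112, 48.2 and 135, and erythrocyte markers (3 of 6) to 5.09, 0 and 0. Summed markers of theca, epithelium, endothelium and germ cells were thus highest in the 6 mm library. Their part in the differences of Z genes against 6 mm was not tested. In RNA from many cells, fewer cells of a type and less RNA per cell cannot be told apart.

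Z genes were expressed at lower median levels than autosomal genes in each library. At an FPKM of 1 or more, 519 Z genes had a median of 8.76 in 6 mm, against 11.8 for 10398 autosomal genes, a ratio of 0.742. In F5 the median of 492 Z genes was 7.89 against 11.9, a ratio of 0.663. In F1 the median of 448 Z genes was 6.38 against 9.35, a ratio of 0.682. Of the expressed Z genes, 60.7%, 61.6% and 59.8% lay below the autosomal median of 6 mm, F5 and F1. At this minimum the ratio lay between 0.663 and 0.742 in all 3 libraries, and no ZZ cells were at hand to set it against.

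The distance from autosomes was small at the top of the range of expressed genes. Both sets are cut at an FPKM of 1, which draws ratios at low quantiles towards 1. The distance in the lower part of the range can therefore not be read from them. The lower quartile of expressed Z genes stood at 0.878, 0.806 and 0.708 of the autosomal one in 6 mm, F5 and F1, and the upper quartile at 0.743, 0.791 and 0.914. At the 90th percentile the ratio was 0.991, 0.950 and 0.984. Among expressed genes, 6.55%, 5.89% and 7.59% of those on Z reached an FPKM of 100, against 5.30%, 6.16% and 5.94% on autosomes. The most abundant Z transcripts were thus about as frequent as those of autosomes.

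The median also depended on where the expression minimum was set. At a minimum of 5 the ratio was 0.787 in 6 mm, 0.773 in F5 and 1.18 in F1, so that in F1 the direction turned. At a minimum of 10, tried after seeing the data, it was 0.881, 1.08 and 1.19.

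Among the 28 chromosomes with at least 50 expressed genes, Z had the lowest median in all 3 libraries. Chromosome 2 was next, with 9.44, 8.92 and 6.79 in 6 mm, F5 and F1, and chromosome 1 stood at 9.88, 9.55 and 7.77. The highest was chromosome 25, one of the small chromosomes, with 25.4, 31.2 and 23.2. Chromosomes 1 to 4 all lay below the autosomal median in each library, and against chromosomes 1 to 5 alone the Z ratio was 0.873, 0.794 and 0.806. Among genes at an FPKM of 1 or more in any library, those on Z spanned a median of 19.4 kb. On chromosomes 1 to 5 the median span was 16.4 kb, and on the other autosomes 9.24 kb. The part of gene span in the levels was not tested. With the minimum at 5, Z was again lowest in 6 mm and F5 but ranked 21 from the lowest in F1.

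**Figure D1:**
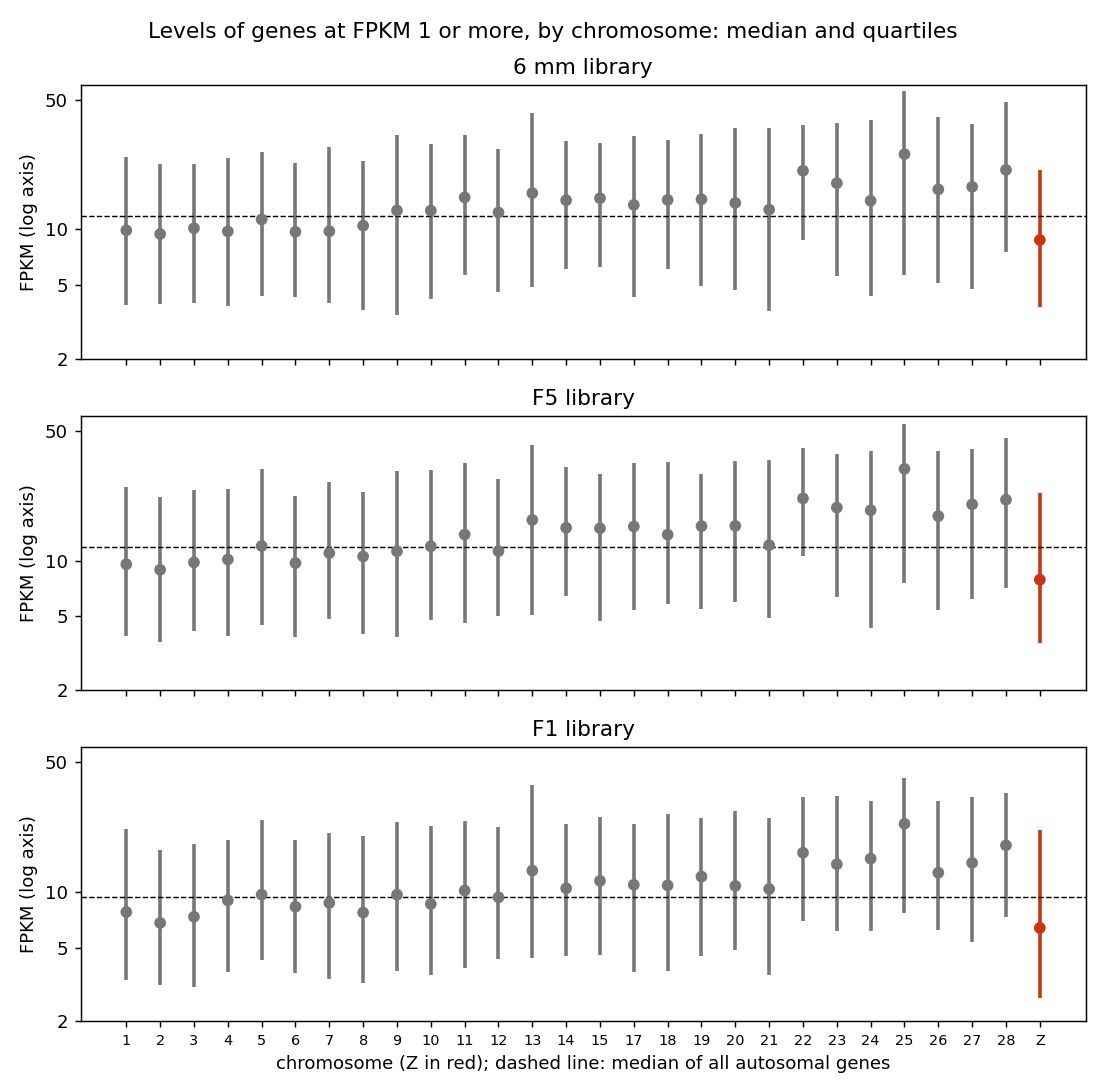
Levels of expressed genes by chromosome in the 3 libraries. The horizontal axis gives chromosomes with at least 50 genes at an FPKM of 1 or more, the vertical axis gives FPKM on a log axis, points are medians, bars span the lower to the upper quartile, and the dashed line is the median of all autosomal genes. The point for Z, at 8.76, 7.89 and 6.38, is the lowest in each panel, close to those of chromosomes 1 and 2.

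Fewer Z genes than autosomal genes were expressed. The share at an FPKM of 1 or more was 56.7% on Z against 63.4% on autosomes in 6 mm, 53.8% against 59.8% in F5 and 49.0% against 53.8% in F1. Of the 915 Z genes, 558 reached this level in at least 1 library and 412 in all 3. Another 199 had reads but stayed below it, and 158 had no read in any library, which is 17.3% of Z genes against 10.4% of autosomal genes. The levels next to the limit were 0.988 and 1.00 in 6 mm, 0.995 and 1.01 in F5, and 0.992 and 1.04 in F1. The type I interferons, antiviral cytokines that lie as a cluster on the chicken Z, contributed 8 listed genes, of which 3 had any reads. Z held 4.74% of all genes and 3.10%, 4.01% and 3.12% of the summed FPKM.

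Levels were uneven along Z. In windows of 10 Mb counted from the start of the chromosome, the lowest medians lay in windows 4 and 5, from 30 to 50 Mb, in all 3 libraries. Window 4 stood at 0.435, 0.507 and 0.489 of the autosomal median in 6 mm, F5 and F1, and window 5 at 0.399, 0.437 and 0.406. The first window, with 160 genes, was at 1.07, 0.840 and 0.889. The last, with 29 genes of which 18, 17 and 13 were expressed, was at 1.09, 1.86 and 1.73. Few genes stand behind that last value, and no difference between windows was tested.

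**Figure D2:**
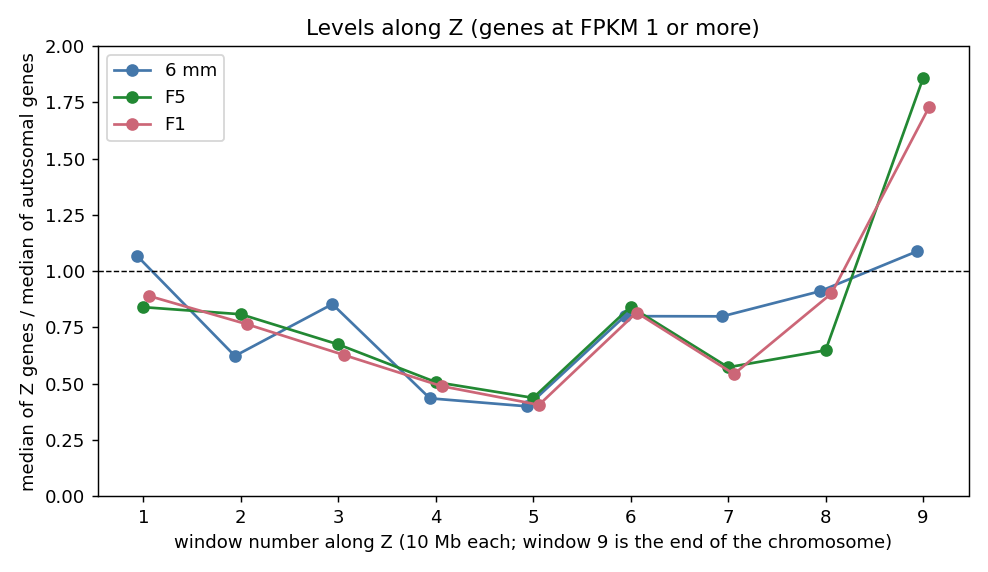
Median level of expressed Z genes in consecutive windows, divided by the autosomal median of the same library. The horizontal axis numbers the windows along Z, the vertical axis is the ratio of medians (no unit), lines join the 9 windows of a library, and the dashed line marks equal levels. All 3 lines are lowest at windows 4 and 5, between 0.399 and 0.507, and the last window rests on at most 18 expressed genes.

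Genes of the ancestral pair that kept a copy on W tended to be abundant. Such genes were taken from the W entries of the RefSeq gene table, which named a W copy for 10 Z genes. A list of known pairs was used as well, of which 16 were found on Z by symbol. Together these made 19 genes, such as the ubiquitin-associated UBAP2, the RNA-binding HNRNPK, the ATP synthase subunit ATP5A1 and the chromatin remodeller CHD1 (listed as CHD-Z). Their expressed members, 18, 18 and 15 in 6 mm, F5 and F1, had medians of 49.9, 42.4 and 49.2 FPKM, and 15, 15 and 14 of them lay above the autosomal median. The Z genes outside this set had medians of 8.44, 7.66 and 5.94, so that without it the ratio to autosomes was 0.715, 0.644 and 0.635. How the counting treated reads that match both a Z and a W copy is not stated, so the levels of these pairs are uncertain.

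UBAP2 was at 173, 264 and 232 FPKM in 6 mm, F5 and F1, under 2-fold apart in each pair of libraries as deposited. ATP5A1 was at 181, 217 and 146. HNRNPK was at 77.8, 82.5 and 31.2, which was 2.65-fold lower in F1 than in F5 (2.33 to 3.02). Median-ratio scaling raises F1 against F5 and so makes this ratio smaller. The AAA ATPase VCP was at 196, 254 and 122. All 4 had their highest deposited FPKM in F5. KCMF1, a ubiquitin ligase, was at 91.3, 41.3 and 8.24, falling from library to library and 11.1-fold lower in F1 than in 6 mm (9.28 to 13.3). SPIN1, a reader of histone marks listed as SPINZ, went the other way with 18.01, 43.41 and 69.96, 3.88-fold higher in F1 than in 6 mm (3.59 to 4.20). CHD-Z was low, at 4.32, 1.25 and 0.991. ZSWIM6 was at 2.33, 37.6 and 49.2, with its 6 mm value far below the others.

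Of the 19 genes listed on W, 15, 12 and 15 had reads in 6 mm, F5 and F1, and 9, 9 and 10 reached an FPKM of 1. Some of these rest on very few reads. ENSGALG00000028139 was at 3.35, 3.54 and 1.42 from 5, 5 and 2 reads, and ENSGALG00000026455 at 1.23 in 6 mm from 2 reads. The summed level of the 19 genes was 221, 360 and 309. Most of it came from Novel02145, annotated as similar to a viral envelope glycoprotein (W, 999447 to 1002364, on the build of the tables, which is not named), at 129, 294 and 237. Without it the sums were 92.3, 65.6 and 72.4. ENSGALG00000009227, a ubiquitin-conjugating enzyme by its domains, was at 41.2, 18.3 and 20.0. UBAP2L2, the W copy of UBAP2, was at 4.86, 9.32 and 3.64, well below the Z copy in each library, and like it highest in F5. ENSGALG00000014184, with a SMAD domain, was at 9.84, 5.44 and 4.02. Novel02144 was lowest in 6 mm, at 0.346 against 4.28 and 7.78. The remaining W genes with reads were at 22.0 FPKM or less in every library.

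Some genes named for W lie on unplaced scaffolds in these tables and were singled out after their values were seen. HINTW, a female-specific relative of the histidine triad protein HINT1, was at 119, 82.0 and 66.8 FPKM, and Wpkci, annotated to the same gene, at 97.9, 55.8 and 44.6. Their Z relative chPKCI was at 93.2, 71.8 and 51.3. A further entry named HINTW, on another unplaced scaffold, was much lower, at 9.17, 5.21 and 4.73, from 39, 21 and 19 reads. All of these were highest in 6 mm and lowest in F1. SPINW was at 3.07, 1.99 and 1.03, opposite in order to SPINZ.

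**Figure D3:**
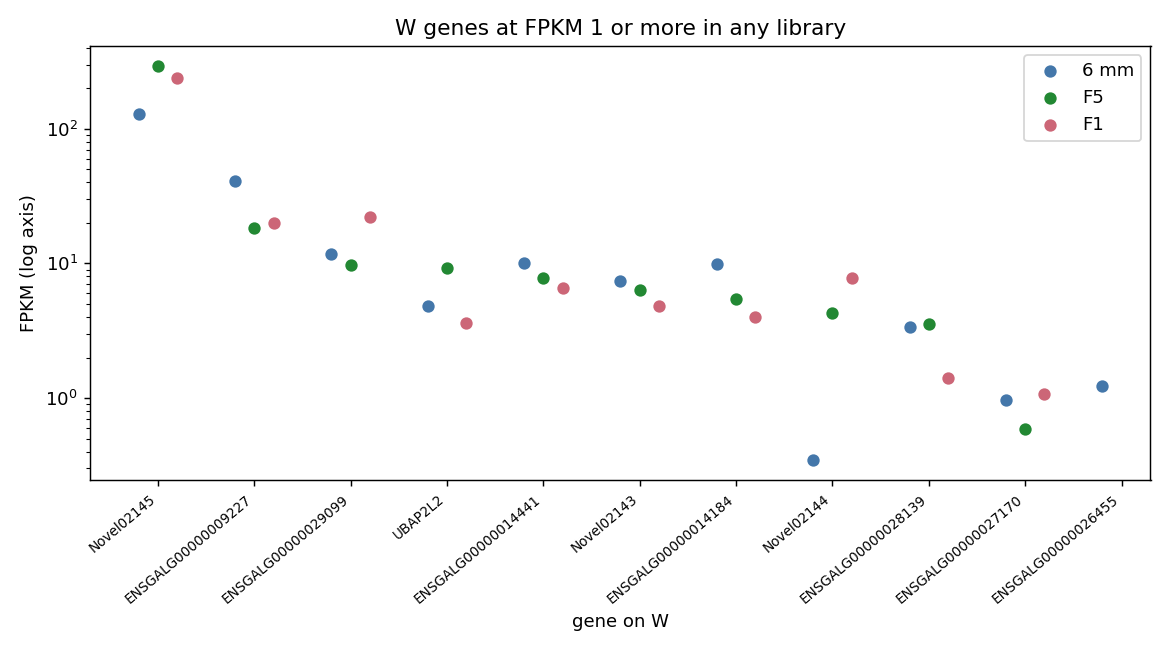
Levels of the W genes that reached an FPKM of 1 in any library. The horizontal axis names the genes, the vertical axis is FPKM on a log axis, and each point is 1 library, with values of 0 not drawn. Novel02145, at 129, 294 and 237, stands above all others, which lie at 41.2 or below. ENSGALG00000028139 and ENSGALG00000026455 have 5 reads or fewer in each library.

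Between stages a gene was counted as different when its log2(FPKM + 1) changed by 1 or more, a 2-fold line, among genes with an FPKM of 1 or more in either library. Z had a larger share of genes past this line upward than the whole table in each comparison. Of 540 Z genes tested in F5 against 6 mm, 59 were higher (10.9%), against 7.64% of all genes tested, and 77 were lower (14.3%), against 10.8%. In F1 against F5, 49 of 518 were higher (9.46%), against 5.09%, and 119 were lower (23.0%), against 22.9%. In F1 against 6 mm, 67 of 547 were higher (12.2%), against 7.45%, and 176 were lower (32.2%), against 32.8%. The shares of lower genes in both comparisons with F1 were thus near the background. The comparisons share libraries, so they do not repeat each other independently.

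At 4-fold, 19 Z genes were higher in F5 than in 6 mm (3.52%) and 11 lower (2.04%), against 2.09% and 1.96% of all genes tested. The lower share was thus near background. In F1 against F5 the counts were 14 (2.70%) and 33 (6.37%), against 1.43% and 5.2%. In F1 against 6 mm, 31 Z genes were higher (5.67%) and 64 lower (11.7%), against 2.76% and 9.36%. There were 8 alternative settings, each counted in the 3 comparisons. The share of Z genes past the upward 2-fold line was above that of all genes in 24 of 24 such counts. The downward share was above it in 8 of 8 for F5 against 6 mm. For F1 against F5 it was above in 5 of 8, and for F1 against 6 mm in 6 of 8. The median log2 difference of Z genes was -0.15 in F5 against 6 mm, -0.41 in F1 against F5 and -0.56 in F1 against 6 mm. All genes had medians of -0.13, -0.53 and -0.64. Median-ratio scaling moved the medians of all genes to -0.018, 0.0042 and -0.0054, and those of Z genes to -0.056, 0.11 and 0.043. On that scale 86 of 518 Z genes were higher in F1 than in F5 (16.6%, against 10.5% of all genes tested). Lower were 62 (11.97%, against 11.6%). In F1 against 6 mm, 125 of 547 were higher (22.9%, against 15.1%) and 98 lower (17.9%, against 17.3%). The lower shares in both comparisons were thus near background. With FPKM as deposited, F1 was the highest library for 22.2% of the 558 Z genes and for 14.6% of expressed autosomal genes.

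**Figure D4:**
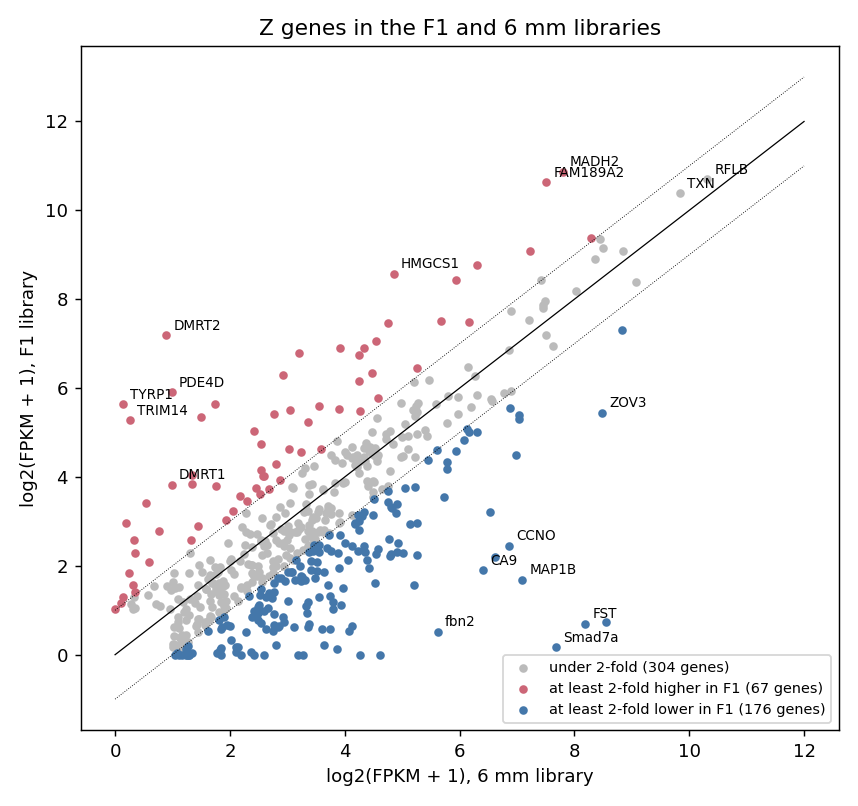
Z genes in F1 against 6 mm. Both axes are log2(FPKM + 1), each point is a gene at an FPKM of 1 or more in either library, the solid line marks equal levels, and the dotted lines mark the 2-fold limits. The 67 genes above the upper dotted line include DMRT2, TYRP1 and MADH2, and the 176 below the lower one include FST and Smad7a.

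Among abundant Z genes, relaxin 3, a peptide hormone of the relaxin family listed as RFLB (Z, 27483980 to 27486468), stood at 1268 FPKM in 6 mm, 6712 in F5 and 1658 in F1. Its F5 value was 5.29-fold that of 6 mm (5.20 to 5.38) and 28.0% of all FPKM on Z in that library. SMAD2, the intracellular transducer of activin and TGF-beta listed as MADH2 (Z, 1515759 to 1557565), was at 221, 1701 and 1875. It was 7.68-fold higher in F5 than in 6 mm (7.51 to 7.86), and F1 was close to F5 in FPKM as deposited. FAM189A2 had the same order, at 181, 1192 and 1594, and BRT-1 was at 77.9, 516 and 435. For these 3 genes and for RFLB the lowest library was 6 mm. RFLB and BRT-1 were highest in F5, and MADH2 and FAM189A2 in F1. RFLB was abundant in all 3 libraries.

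The redox protein thioredoxin, TXN, was at 914, 1044 and 1335, and the chromatin-associated PSIP1 at 457, 599 and 545. Neither passed the 2-fold line in any comparison. HEMGN, a nuclear protein first described in blood cells, was at 539, 846 and 336, 2.52-fold higher in F5 than in F1 (2.42 to 2.62). The same scaling makes this ratio smaller. REEP5, which shapes the endoplasmic reticulum, was at 148, 177 and 538, high in F1 alone. The ribosomal proteins RPS6, RPL37, RPS23 and RPL17 were also among the 12 most abundant, with RPS6 at 310, 359 and 660.

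Of the TGF-beta family genes sought, 4 were matched on Z by symbol and 3 of these were expressed. Follistatin, FST, which binds and neutralises activin (Z, 15930691 to 15938408), was at 290 FPKM in 6 mm, 30.4 in F5 and 0.625 in F1. Each step was down, by 9.56-fold (9.05 to 10.1) and by 48.5-fold (33.7 to 72.8). Smad7a, an inhibitory SMAD by its name that the symbol match to this list missed, was at 205, 107 and 0.122. Only 3 reads stood behind its F1 value, which gives a ratio of 872 between F5 and F1 (298 to 4230). The unnamed neighbour ENSGALG00000023719, on the opposite strand just past its end and singled out after its values were seen, was at 374, 202 and 0.668. Its order across the libraries was that of Smad7a. DAB2, an endocytic adaptor known to take part in TGF-beta signalling, was at 178, 67.5 and 249, lowest in F5. RGMB, a co-receptor for bone morphogenetic proteins, was at 8.16, 14.5 and 109, 7.53-fold higher in F1 than in F5 (6.82 to 8.32). Over the 3 expressed members matched, 1 was higher and 2 lower in F5 than in 6 mm. In F1 against F5, 1 was higher and 1 lower, not counting Smad7a, which was also lower. Over all genes the shares were 7.64% higher and 10.8% lower at the first step and 5.09% and 22.9% at the second, and 3 genes are too few to set against them.

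The list of receptors and signal transducers had 30 genes on Z, of which 20 were expressed. It also held the ligands RFLB (relaxin 3) and FGF10. RFLB was counted among those higher in F5 than in 6 mm and those lower in F1 than in F5. In F5 against 6 mm, 4 of 20 were higher and 5 lower, in F1 against F5 3 of 16 were higher and 4 lower, and in F1 against 6 mm 3 of 19 were higher and 8 lower. All genes tested had 7.64% higher and 10.8% lower, 5.09% and 22.9%, and 7.45% and 32.8% in the same order, so the lower counts in both comparisons with F1 were not far from background. Their median log2 differences were 0.035, -0.26 and -0.29, against -0.13, -0.53 and -0.64 for all genes. PDE4D, a phosphodiesterase that breaks down cAMP, was at 0.983, 3.16 and 59.0. It was 18.7-fold higher in F1 than in F5 (15.8 to 22.2). The growth hormone receptor GHR was at 2.39, 5.85 and 13.0. With FPKM as deposited its ratios at each step were about equal, 2.45 (1.90 to 3.18) and 2.22 (1.88 to 2.63). Median-ratio scaling raises the second ratio more than the first. NTRK2, a receptor of neurotrophins, was at 1.49, 6.71 and 4.95, low in 6 mm.

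Other transducers were low in F1 or high in 6 mm. NPR2, a guanylyl cyclase receptor of C-type natriuretic peptide, was at 2.57, 0.256 and 0.079, highest in 6 mm. The kinase MAP3K1 was at 6.11, 12.9 and 2.33, though it overlaps a gene on the other strand. PRKAA1, a catalytic subunit of the energy sensor AMPK, was at 9.61, 3.98 and 2.76. DGKQ, a diacylglycerol kinase, was at 36.1, 5.37 and 1.99, 6.72-fold lower in F5 than in 6 mm (5.80 to 7.81). By contrast PIP5K1B, which makes the lipid PIP2, was at 22.2, 8.09 and 133, and AKAP2, an anchor of protein kinase A, at 4.84, 2.74 and 25.8. Both were high in F1 and lowest in F5. The adaptor FYB was at 1.82, 16.4 and 39.8, rising in value at each step.

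The transcription and chromatin list had 21 genes on Z, 17 of them expressed. In F5 against 6 mm, 4 of 16 were higher and 1 lower, in F1 against F5 1 of 17 was higher and 5 lower, and in F1 against 6 mm 6 of 17 were higher and 5 lower. Beside them stand 7.64% higher and 10.8% lower, 5.09% and 22.9%, and 7.45% and 32.8% of all genes, and in F1 against F5 the list was near these shares. Their medians were 0.56, 0.11 and 0.018, against -0.13, -0.53 and -0.64 for all genes. DMRT1 (Z, 25808415 to 25864441) was at 0.980 FPKM in 6 mm, 9.61 in F5 and 13.2 in F1, from 21, 195 and 267 reads. It was 9.80-fold higher in F5 than in 6 mm (6.24 to 16.2). DMRT2, its relative on the same stretch (Z, 25902813 to 25905855), was at 0.859, 15.3 and 144. That was 17.8-fold at the first step (11.2 to 29.9) and 9.46-fold at the second (8.43 to 10.6). DMRT3, between them, had no reads in 6 mm and F5 and was at 0.871 in F1, from 24 reads. All 3 were thus highest in F1 and lowest, or without reads, in 6 mm.

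GLIS3, a zinc finger factor, was at 0.252, 4.07 and 4.99, low in 6 mm like the DMRT genes. The nuclear receptor NR2F1 was at 32.2, 46.9 and 12.5, 3.76-fold lower in F1 than in F5 (3.24 to 4.38), and it overlaps a gene on the other strand. NFIB was at 4.60, 3.78 and 0.716, MEF2C at 5.65, 6.81 and 1.43 and NFIL3, a repressor of the leucine zipper type, at 2.68, 5.14 and 0.876. These 4 factors were lowest in F1.

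Of sterol, lipid and energy genes, 23 were on Z and 21 expressed. Of these, 2 of 21 were higher in F5 than in 6 mm and 5 lower, in F1 against F5 5 of 18 were higher and 2 lower, and in F1 against 6 mm 4 of 21 were higher and 7 lower. The shares of all genes were 7.64% higher and 10.8% lower, 5.09% and 22.9%, and 7.45% and 32.8%, which puts 2 of 21 higher in F5 and 7 of 21 lower in F1 against 6 mm near background. Their medians were -0.25, 0.051 and -0.48, against -0.13, -0.53 and -0.64 for all genes. The cholesterol synthesis enzyme HMGCS1 was at 27.9, 39.1 and 380 FPKM, 9.72-fold higher in F1 than in F5 (9.12 to 10.4). The sterol carrier STARD4 was at 1.52, 4.22 and 15.5. Both were highest in F1. ELOVL7, which lengthens fatty acids, was at 4.73, 2.54 and 11.2, and also highest in F1.

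Other lipid genes were highest in 6 mm. The very low density lipoprotein receptor, listed as VLDL and known in the hen for yolk uptake by the oocyte, was at 454, 124 and 159, 3.66-fold lower in F5 than in 6 mm (3.56 to 3.76). ABCA1, which exports cholesterol from cells, was at 16.4, 0.753 and 0.577, 21.7-fold lower in F5 (17.3 to 27.7). The endothelial lipase LIPG was at 97.0, 58.7 and 3.62, and ACAA2, a thiolase of fatty acid oxidation, at 29.0, 25.2 and 9.52. For these last 2 the low library was F1. GLDC, of glycine breakdown, was at 3.29, 0.230 and 0.126.

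**Figure D5:**
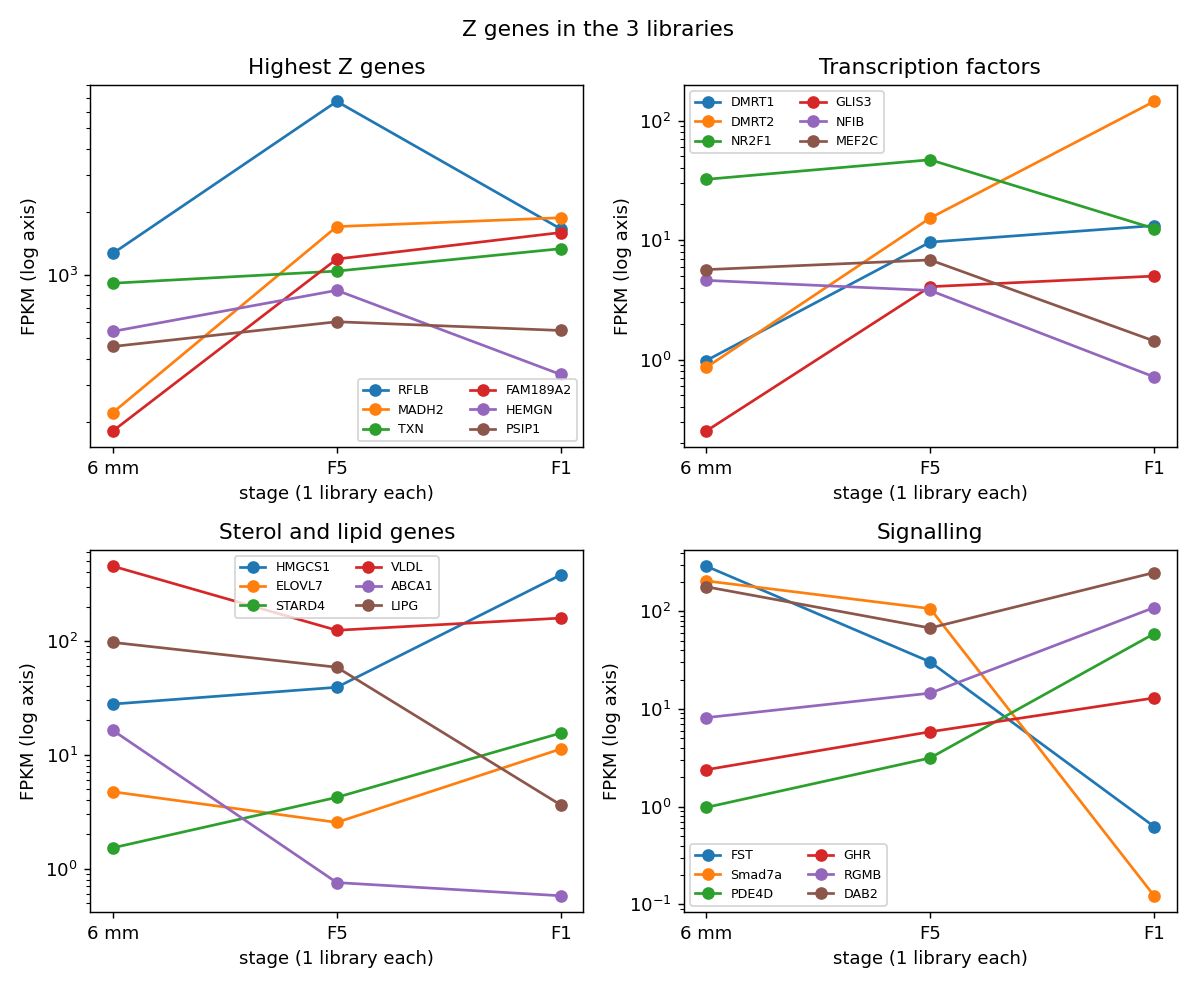
Levels of 24 Z genes over the 3 libraries in 4 panels. The horizontal axis gives the stage, the vertical axis is FPKM on a log axis, and each line joins the values of a gene, with 1 library per stage and no error shown. RFLB peaks in F5 at 6712, DMRT2 reaches 144 and HMGCS1 380 in F1, and FST and Smad7a end at 0.625 and 0.122.

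Cell cycle and DNA repair genes on Z numbered 19, with 16 expressed. In F5 against 6 mm 0 of 16 were higher and 2 lower, in F1 against F5 0 of 14 and 5, and in F1 against 6 mm 0 of 16 and 7, with medians of -0.42, -0.65 and -0.92. Of all genes, 7.64% were higher and 10.8% lower, 5.09% and 22.9%, and 7.45% and 32.8%, with medians of -0.13, -0.53 and -0.64, so in a list of this size few higher genes would stand at the background share. The kinetochore genes CENPK and CENPH were at 13.6, 6.47 and 0.098 and at 22.1, 15.4 and 2.07. With 2 reads in F1, CENPK had a ratio of 66.3 between F5 and F1 (17.99 to 553), and that of CENPH was 7.45 (4.71 to 12.4). HAUS6, a spindle protein, was at 14.6, 10.6 and 1.82, the mitotic kinase MELK at 3.06, 2.39 and 0.257, and the centrin CETN3 at 37.1, 9.91 and 3.77. All of these were lowest in F1. CCNH, a cyclin of the transcription and cell cycle kinase CDK7, was at 14.1, 9.29 and 5.52. PLK2 was highest in 6 mm, at 4.65, 0.564 and 1.12.

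Matrix, adhesion and cytoskeleton genes numbered 13 on Z, with 7 expressed. In F5 against 6 mm 0 of 7 were higher and 1 lower, in F1 against F5 1 of 6 and 1, and in F1 against 6 mm 2 of 7 and 3, with medians of 0.39, -0.32 and -0.12. The shares of all genes were 7.64% higher and 10.8% lower, 5.09% and 22.9%, and 7.45% and 32.8%. So few list genes cannot be set against them. LOX, which cross-links collagen, was at 2.57 in 6 mm, had no reads in F5 and was at 0.111 in F1. Against a floor of 3 reads it was 61.9-fold lower in F5 than in 6 mm, and the exact interval of 0 reads allows a ratio down to 49.9. The sum of theca and smooth muscle markers was likewise highest in 6 mm, at 643 against 21.5 and 17.4, and its part in the LOX difference was not tested. The matrix protein THBS4 was at 10.7, 19.6 and 47.0, and the proteoglycan VCAN at 47.8, 46.3 and 23.3. The collagen receptor subunit ITGA2 was at 11.0, 17.7 and 23.6, while TLN1, which links integrins to actin, was at 69.5, 95.9 and 87.5. Fibrillin 2, of elastic microfibrils and not on the list, was at 48.2, 14.5 and 0.432 (listed as fbn2), 33.5-fold lower in F1 than in F5 (26.4 to 43.2).

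With FPKM as deposited, ribosome, translation and mitochondria genes, 14 on Z with 13 expressed, passed the 2-fold line 1 time in the 3 comparisons. Counted singly, 0 of 13 did so in F5 against 6 mm or in F1 against F5, and 1, RPS6, was higher in F1 than in 6 mm, with medians of 0.012, -0.089 and 0.0068. Among all genes 18.4%, 28.0% and 40.3% passed it in either direction, with medians of -0.13, -0.53 and -0.64. Median-ratio scaling moved these medians of all genes to -0.018, 0.0042 and -0.0054. No count of the list on that scale is given here, so stable levels of its genes cannot be read from the counts above. The chaperone DNAJA1 was at 115, 177 and 115, and NDUFS4, of respiratory complex I, at 16.4, 10.6 and 7.82. For the W pair list, 3 of 15 were higher and 2 lower in F5 than in 6 mm. The counts were 0 and 3 in F1 against F5, and 3 and 3 in F1 against 6 mm. Their medians were 0.27, -0.18 and 0.12. The Z relative of HINTW, chPKCI, was not matched to this list by symbol. The shares of all genes were 7.64% higher and 10.8% lower, 5.09% and 22.9%, and 7.45% and 32.8%, so 3 of 15 lower in F1 against F5 was at background.

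Further genes with large differences had no list in common. The sodium, potassium and chloride cotransporter SLC12A2 was at 17.9, 213 and 106, 11.9-fold higher in F5 than in 6 mm (11.1 to 12.8). SPINK4, a protease inhibitor, was at 0.988, 13.7 and 0.448, high in F5 alone. TYRP1, a melanosome enzyme known from pigment cells, was at 0.097, 7.37 and 48.9, with 3 reads in 6 mm. TRIM14 was at 0.197, 1.46 and 37.8, 26.0-fold higher in F1 than in F5 (19.1 to 36.2). TYRP1 and TRIM14 rose in value at each step and were highest in F1.

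The cell surface protein embigin, listed as ZOV3, was at 358, 39.8 and 42.7, 8.98-fold lower in F5 than in 6 mm (8.60 to 9.38). MAP1B, a microtubule protein, was at 135, 16.5 and 2.22, and ENC1 at 10.5, 1.40 and 2.69. The carbonic anhydrase CA9 was at 84.3, 50.9 and 2.72, 18.7-fold lower in F1 than in F5 (13.9 to 25.8). MCIDAS and CCNO, neighbours known from multiciliated cells, were at 23.4, 2.11 and 0 and at 115, 46.0 and 4.48. MCIDAS was 114-fold lower in F1 than in 6 mm against a floor of 3 reads. The exact interval of 0 reads allows a ratio down to 92.4. Summed epithelial markers had the same order, 153, 22.7 and 2.80, as did germ cell markers, 225, 43.8 and 0.900, and their part in these 2 genes was not tested.

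Runs of neighbouring Z genes that differed alike were about as frequent as on autosomes where they were most numerous. Among genes tested in a comparison, 37 runs of 3 or more consecutive genes lay past the 2-fold line in 1 direction, 20 of them lower in F1 than in 6 mm, the direction with the largest background. Those 20 runs held 12.6% of the Z genes tested, and such runs held 13.6% of autosomal genes. For genes lower in F1 than in F5 the shares were 6.95% and 6.47%, and for genes higher in F5 than in 6 mm 1.85%, from 3 runs, and 0.921%. The runs are given as positions only. From 6 mm to F5, OXCT1, FBXO4, GHR and SEPP1 formed a run of higher genes (Z, 13039225 to 13455542). SEPP1, the selenium transport protein, was at 60.4, 127 and 347. In F1 against 6 mm, the only run of higher genes was KANK1, DMRT1 and DMRT2, with KANK1 at 0.689, 0.881 and 5.87. Such runs held 0.548% of the Z genes tested, less than the 1.32% of autosomal genes. In F1 against F5, the only run of higher genes was TRIM14, NANS and CLTA, with NANS at 70.8, 57.2 and 179. There the shares were 0.579% on Z and 0.545% on autosomes. The longest run of lower genes in that comparison was SNCAIP, SNX2, SNX24, PPIC and CEP120 (Z, 80929219 to 81351273).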

How the data were processed

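The submitters' processing notes name TopHat2 (2.0.12), an aligner, and HTSeq (0.6.1), a read counter. Neither the build nor the strand setting is given in the sources used here. The authors deposited FPKM values per gene and library, with positions, names and domain annotations. Whole reads and library totals were recovered from the steps of these values (largest relative deviation 1.91e-14). The reads came to 94.7%, 93.8% and 94.8% of the totals. A gene's reads were taken as the smallest whole numbers that give its values. For some genes the true reads may thus be higher, and their intervals narrower. Symbols came from the gene name column for 600 Z genes, from the KEGG column for 13 and its synonyms for 1, and from neither for 301. RefSeq's gene table for GRCg7b gave W copies and current symbols only.

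Members were rows with chromosome Z, and the members and lists were chosen with earlier results of these data known. Levels used genes at an FPKM of 1 or more. Differences used log2(FPKM + 1), which understates changes of low genes, while ratios use FPKM itself. Ratio intervals are exact (Clopper-Pearson, 95%), and genes without reads got a floor of 3 reads. Named were symbol-bearing Z genes: the 12 with the highest mean FPKM, the 8 largest differences per direction and comparison at an FPKM of 10 or more, up to 8 members of each of 8 lists with the largest range, and W genes with reads. Some genes that this rule takes are left out of the text. Other genes named were chosen after their values were seen. The steps were tested on simulated data. Python 3.11.15, pandas 2.3.3 and scipy 1.17.1 were used. No sequence is printed.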

Additional observations from a re-analysis of the deposited data

How the results depend on the processing

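No paired analysis was possible because each stage had 1 library. The Z to autosome ratio was below 1 in 36 of 39 alternative settings, 9 of which were chosen after seeing the data. It ran from 0.639 to 0.881 in 6 mm, 0.573 to 1.08 in F5 and 0.592 to 1.19 in F1. The values that moved most follow, and the cause was not tested.

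For 6 mm, F5 and F1, geometric means gave 0.823, 0.812 and 0.848. Chromosomes 1 to 5 gave 0.873 in 6 mm and 0.794 in F5, and chromosomes 6 and up gave 0.573 in F5. A minimum of 5 gave 0.773 in F5 and 1.18 in F1. Minimums chosen after seeing the data gave 0.881 in 6 mm, 1.08 in F5 and 1.19 in F1 at 10, and 0.945 in F1 at 3. The expressed share of Z genes was 63.5%, 59.1% and 56.1% at a minimum of 0.5, and 37.7%, 35.8% and 27.8% at 5. On autosomes it was 70.2%, 65.5% and 59.0% at 0.5, and 45.7%, 43.4% and 36.4% at 5.

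With a pseudocount of 5, 34 Z genes were higher in F5 than in 6 mm (6.30%, against 3.82% of all genes tested). Lower were 31 (5.74%, against 3.62%). In F1 against F5, 32 were higher (6.18%, against 2.80%) and 51 lower (9.85%, against 9.31%). In F1 against 6 mm, 86 were lower (15.7%, against 14.3%). In F1 against F5, median-ratio scaling, upper quartile scaling and subtraction of the autosomal median gave 86, 82 and 87 higher and 62, 64 and 54 lower. As shares, 16.6%, 15.8% and 16.8% were higher, against 10.5%, 9.93% and 10.4% of all genes. Lower were 11.97%, 12.4% and 10.4%, against 11.6%, 12.1% and 9.58%. In F1 against 6 mm the same settings gave 125, 111 and 124 higher and 98, 107 and 85 lower. The higher shares were 22.9%, 20.3% and 22.7%, against 15.1%, 13.5% and 15.4% of all genes. The lower shares were 17.9%, 19.6% and 15.5%, against 17.3%, 18.7% and 13.8%.

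The median log2 difference of Z genes in F5 against 6 mm was -0.085 with a pseudocount of 5, -0.31 with equal FPKM sums, -0.056 with median-ratio scaling and 0.00039 with the autosomal median subtracted. In F1 against F5 it was -0.47 and -0.22 with pseudocounts of 0.1 and 5, -0.23 without a minimum, -0.49 with equal sums, and turned to 0.11, 0.080 and 0.12 with median-ratio scaling, upper quartile scaling and the autosomal median subtracted. In F1 against 6 mm it was -0.27 with a pseudocount of 5, -0.33 without a minimum, -0.80 with equal sums, -0.042 with upper quartile scaling, and turned to 0.043 with median-ratio scaling and 0.11 with the autosomal median subtracted. Of 1458 values of named genes under alternatives, 179 crossed the 2-fold line and 0 passed it in the opposite direction.

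With 1 library per stage, variation between hens is not measured, and intervals cover counting error only. Genes with few reads, such as Smad7a, CENPK and MCIDAS in F1, have wide ratios or lower limits only.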
